A study of Caenorhabditis elegans with 4 samples.

Results

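The outermost 500 kb at each end of chromosomes II, III, IV and V of Caenorhabditis elegans were examined for T09A5.8, a protein mapped by ChIP-seq. A peak belonged to an end when its midpoint fell within 500 kb of that end on genome build WS220. The 8 ends held 1411 of the 22873 peaks in 3 deposited lists, namely 227 of 3810 peaks in the list of replicate 1, 241 of 4000 in that of replicate 2, and 943 of 15063 in a series-level list. The next 500 kb inward, used for comparison, held 240, 241 and 970.

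The libraries came from fem-2(b245) hermaphrodites at 20 °C, of genotype fem-2(b245)III. The labels give the stage as young adults with a germline, while their growth protocol describes cultures grown until gravid. All 4 libraries, 2 of ChIP and 2 of input DNA, share this genotype, so no animals with wild-type fem-2 and none without T09A5.8 served as a control. Extracts were made from whole worms, so the peaks mix all tissues. Each peak has a position and a score of the authors' peak caller, whose definition the lists do not state and which ranks peaks only within a list. No read counts accompany the peaks, so depth is unknown, and a base outside a peak shows only that enrichment did not pass the caller's threshold. No label says that the 2 ChIP replicates are separate cultures, so the spread between them may be technical. The input libraries were not used here, and 2 libraries of 1 group allow no test between conditions. Differences between ends are therefore set against the spread of the replicates.

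T09A5.8 carries the symbol cec-3 and belongs to the chromodomain proteins, which bind methylated histone tails. In C. elegans it is reported to bind histone H3 methylated at lysine 9, a mark of silent chromatin. The chromosomes of this worm have no single centromere, and their outer parts, the arms, hold most of the repeats and of that mark, while the genes of the centres are more often active. Each chromosome ends in telomere repeats, next to which lies subtelomeric sequence. The right-hand ends used here are the last bases of the last series-level peaks on each chromosome, so a series-level peak at distance 0 on the right follows from how that end was set.

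The 8 ends differed widely in how much of them lay in peaks. The left end of chromosome III was by far the most covered, with 55.7% of its bases in peaks in replicate 1 and 54.0% in replicate 2 (mean 54.8% ± 1.21, SD, n = 2). Next came the right end of chromosome V with 30.7% and 30.2% (30.4% ± 0.337). Both ends of chromosome IV were nearly bare. On the left 4.87% and 6.27% of bases lay in peaks (5.57% ± 0.989), and on the right 4.98% and 4.78% (4.88% ± 0.139).

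The other 4 ends lay between these. On the right of chromosome III peaks covered 17.5% and 20.0% (18.8% ± 1.78). On chromosome II the right end had 14.0% and 16.3% (15.1% ± 1.59) and the left end 8.54% and 11.3% (9.90% ± 1.92). For the left end of chromosome V the values were 7.15% and 8.71% (7.93% ± 1.10). In this order from high to low, the ranges of the replicates did not overlap between neighbours, except between the left ends of II and V and between the ends of IV, which did not differ beyond their spread. Together the left end of III and the right end of V held 60.2% of all terminal peak bases in replicate 1 and 55.6% in replicate 2. They held 52.0% and 46.9% of the terminal peaks.

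The ends were then compared with the next 500 kb inward. Summed over the 8 ends, the 2 zones were covered alike. The terminal windows had 17.9% and 18.9% of their bases in peaks (18.4% ± 0.713) and the inward windows 17.7% and 18.9% (18.3% ± 0.838). The whole of chromosomes II to V was covered by 12.9% and 13.6%. The higher share of the ends was not general. The left end of III alone held 38.8% and 35.6% of the terminal peak bases. Both ends of IV and the left ends of II and V were covered less than the whole chromosomes in both replicates. The sum hid opposite patterns, because 3 ends were covered more than the window inside them in both replicates and 5 were covered less.

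Coverage at the left end of chromosome III was 2.11 ± 0.0880 times that of its inward window, which was covered by 25.7% in replicate 1 and 26.4% in replicate 2. This end held 64 and 65 peaks, against 33 and 34 inward. The excess depended on the window, since the outer 250 kb of this end, with 53.6% and 51.1%, were covered less than the next 250 kb, with 57.8% and 56.8%. On the left of chromosome IV the reverse was seen, with 0.236 ± 0.0180 times the coverage of its inward window, which was covered by 21.8% and 25.2%. It held 11 and 15 peaks, against 44 and 47 inward. These were the largest gaps, and at both ends the ranges of the replicates lay well apart.

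Smaller gaps followed at 4 ends where the ranges of the replicates also did not overlap. Coverage at the right end of II was 1.38 ± 0.0712 times that of its inward window. The ratio was 0.519 ± 0.0814 at the right end of IV, 0.723 ± 0.0904 at the left end of V and 0.845 ± 0.0103 at the right end of V (SD, n = 2). At the left end of II (1.08 ± 0.0631) and the right end of III (0.938 ± 0.0634) the ranges overlapped. By this measure, which does not pair the values by replicate, these ends did not differ from their inward windows beyond the spread. Within replicates 1 and 2, terminal minus inward coverage was 0.309 and 1.27 points on the left of II. On the right of III it was -2.09 and -0.348 points, so each end kept its direction. By the series-level list the right end of III lay on the other side, at 1.09 times its inward window. The equal sums depended on single ends, since the ratio over all ends was 1.01 ± 0.00726 but 0.771 ± 0.0178 without the left end of III and 1.16 ± 0.00221 without the left end of IV.

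**Figure D1:**
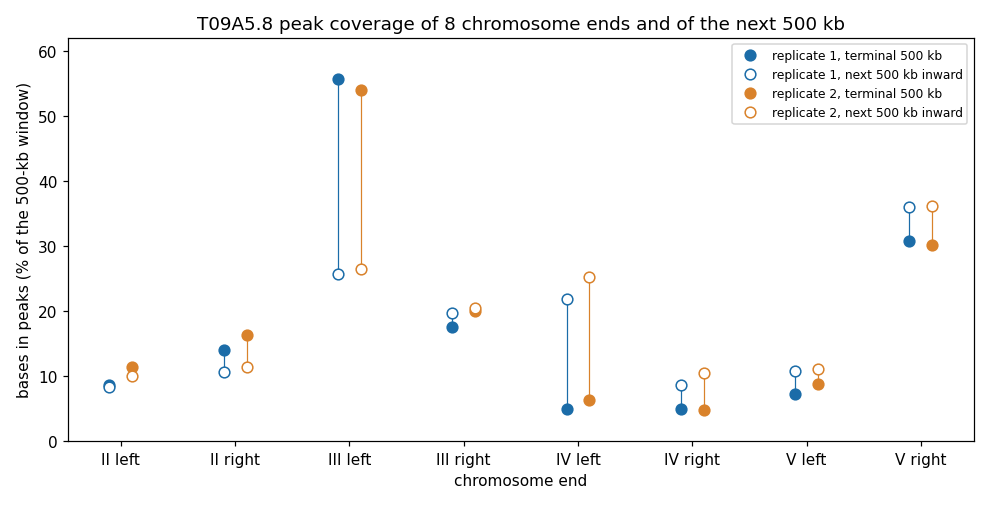
Percentage of bases in T09A5.8 peaks (y axis) at each of the 8 chromosome ends (x axis). Filled points are the terminal 500 kb and open points the next 500 kb inward, 1 pair per replicate. The left end of III has 55.7% and 54.0% of its bases in peaks, and its inward window 25.7% and 26.4%. The left end of IV has 4.87% and 6.27%, and its inward window 21.8% and 25.2%.

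Set against their own chromosome, cut into windows of 500 kb, most ends were not where the peaks were densest. On chromosomes II, III and IV the most covered window was that from 1500001 to 2000000, with 47.2%, 61.9% and 48.3% of its bases in peaks in replicate 1. Only 1 of the 27 windows of chromosome III was covered more than its left end in each replicate. By coverage the right end of V ranked 8 of 41 windows in replicate 1 and 7 in replicate 2, and the ends of chromosome II ranked 10 on the left and 8 on the right of 30. The ends of IV fell in the middle of its 34 windows, at ranks 19 and 18 on the left and 18 and 20 on the right. Relative to the whole chromosome, the left end of III had 3.03 and 2.87 times the coverage, and the left end of IV 0.459 and 0.545 times.

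Coverage did not fall or rise smoothly from the end inward. Averaged over the 8 ends, the outermost 100 kb had 20.9% of bases in peaks in replicate 1 and 21.1% in replicate 2. The share was 9.64% and 11.3% between 600 and 700 kb, and 27.8% and 29.6% between 900 and 1000 kb. In this mean the coverage of both replicates was lowest between 600 and 700 kb and rose again toward 1 Mb. Without the left end of III, the outermost 100 kb had 16.7% and 17.2%, above the 9.07% and 11.4% between 600 and 700 kb and the 9.60% and 10.9% between 300 and 400 kb, so that the low zone then reached into the terminal windows.

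Single ends departed from this mean profile. In bins of 50 kb, coverage at the left end of III ran from 30.0% to 88.7% in replicate 1 and from 33.5% to 86.9% in replicate 2, with both maxima in the bin from 250 to 300 kb. All of its 10 bins exceeded 25% in both replicates, as did 4 of 10 at the right end of V, 3 at the right end of III, 2 at the right end of II and 0 at the other 4 ends. Such bins were not confined to the terminal windows. On the right of V the inward bin from 950 to 1000 kb had 96.1% in replicate 1 and 93.8% in replicate 2. At the right end of IV the outer 250 kb were covered by 1.23% and 1.09%, whereas the inner 250 kb had 8.72% and 8.47%. Its left end ran the other way, with 7.45% and 9.53% in the outer 250 kb and 2.30% and 3.01% in the inner 250 kb. At the right end of II the outer 250 kb, with 19.8% and 22.7%, were likewise covered more than the inner 250 kb, with 8.25% and 9.88%.

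**Figure D2:**
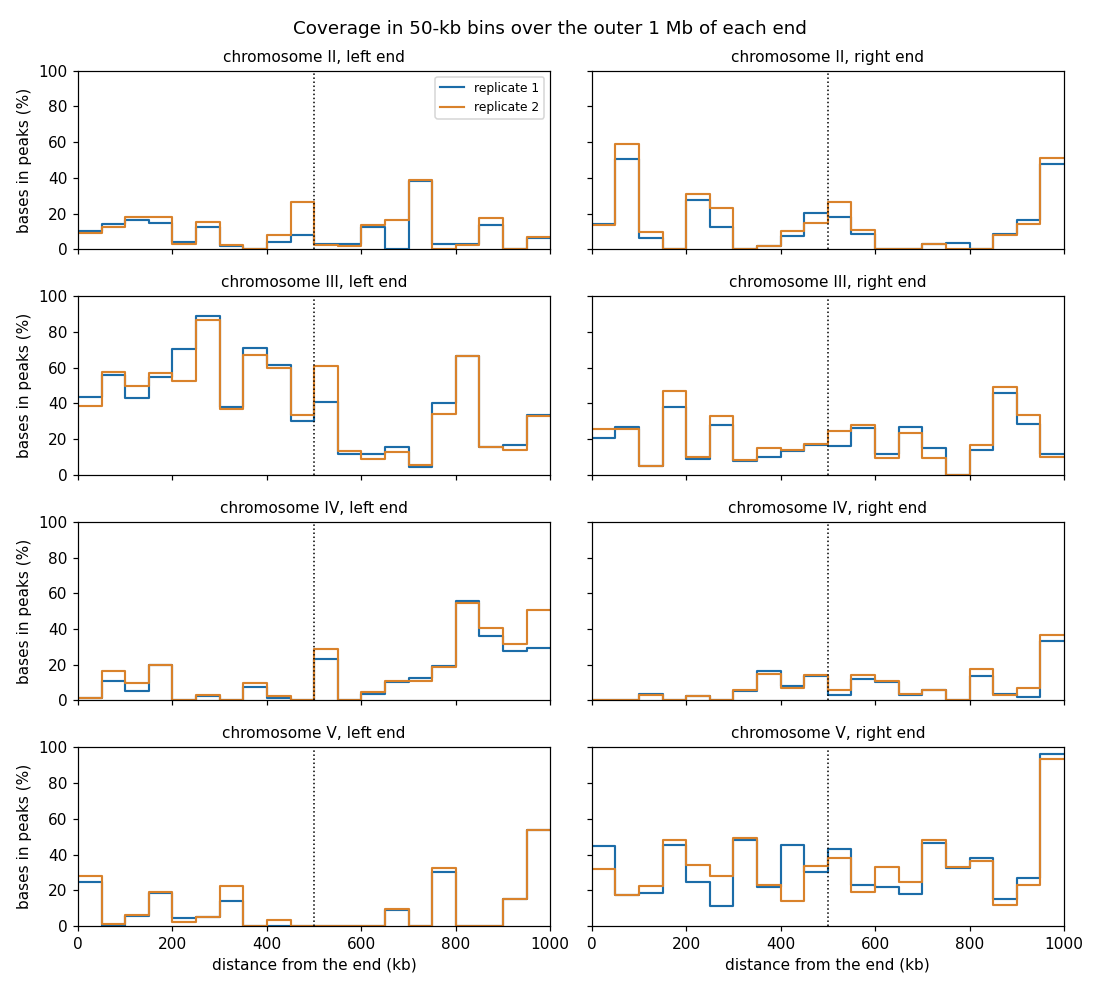
Percentage of bases in peaks in 50-kb bins (y axis) against the distance from the end in kb (x axis), for replicates 1 and 2 at each end; the dotted line marks 500 kb. The left end of III reaches 88.7% and 86.9% between 250 and 300 kb, and several bins of the other ends hold no peak base.

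Long stretches without any peak separated the peaks of the sparse ends. Of the 80 bins of 50 kb, 12 held no peak base in either replicate, 4 of them at the right end of IV and 3 at its left end. Empty bins also occurred in the inward windows, where they were not counted. On the left of V, for example, no peak base lay between 500 and 650 kb in either replicate. The longest stretch without a peak at the right end of IV was 113 kb in both replicates, from 17170896 to 17284110 in replicate 1. A similar stretch of 113 kb and 111 kb lay at the better covered right end of II, from 14879964 to 14992583 in replicate 1. At the left end of V replicate 1 had no peak over the inner 170 kb of the window, a stretch in which replicate 2 had 2 weak peaks, with scores of 63.2 and 66.4. In the left end of III there was no stretch without a peak longer than 25.2 kb in replicate 1 and 26.5 kb in replicate 2.

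All 4 left ends began with a peak in both replicates. On chromosome II the first peak ran from base 2 to 954 in replicate 1 and from base 2 to 926 in replicate 2, with scores of 645 and 1034. On chromosome III it ran from base 2 to 1496 and from base 1 to 1257, with scores of 578 and 349. On chromosome IV it ran from base 2 to 597 and from base 2 to 635, with scores of 96.5 and 251. On chromosome V it ran from base 2 to 748 and from base 3 to 765, with scores of 79.2 and 218. Thus the first peak started by base 3 in both libraries, a side limited by the chromosome end itself. Its inner limit was close between them on II, IV and V and less so on III (1496 and 1257). Its score was in the upper part of the list on chromosome II (percentiles 63.4 and 65.9). On chromosomes IV (16.1 and 35.4) and V (10.1 and 31.8) the score was in the lower part. On III it lay on either side of the median, at 61.0 and 43.1. The series-level list also had a peak within the first 100 bases on II, III and V, but on IV its first peak lay 60.7 kb inside. The first peak of chromosome IV was the only terminal peak of either replicate without a series-level peak (226 of 227 and 240 of 241 had one).

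The right ends had no such peak in the replicate lists. The nearest peak lay 2.98 kb and 4.83 kb from the end on chromosome V, 6.59 kb in both replicates on II, 15.9 kb and 16.1 kb on III, and 103 kb in both on IV. These distances count from the last series-level peak, and the true chromosome lengths were not used here. Mappability and the input reads of the outermost bases were not examined, so their part in the first peaks was not tested.

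The outermost bases of the right end of chromosome III were the clearest case where the lists disagreed. Replicate peaks covered 0% of the last 10 kb in both replicates, and series-level peaks covered 75.3%. The series-level list had 9 peaks in the last 20 kb, and 7 of them overlapped no replicate peak. The strongest of these ran from 13782359 to 13783019 with a score of 34.3, the highest of any terminal series-level peak that overlapped neither replicate. The widest was 4314 bp long, and 6 of the 7 scored above the median of the series-level list. This stretch was chosen after its values were seen.

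**Figure D3:**
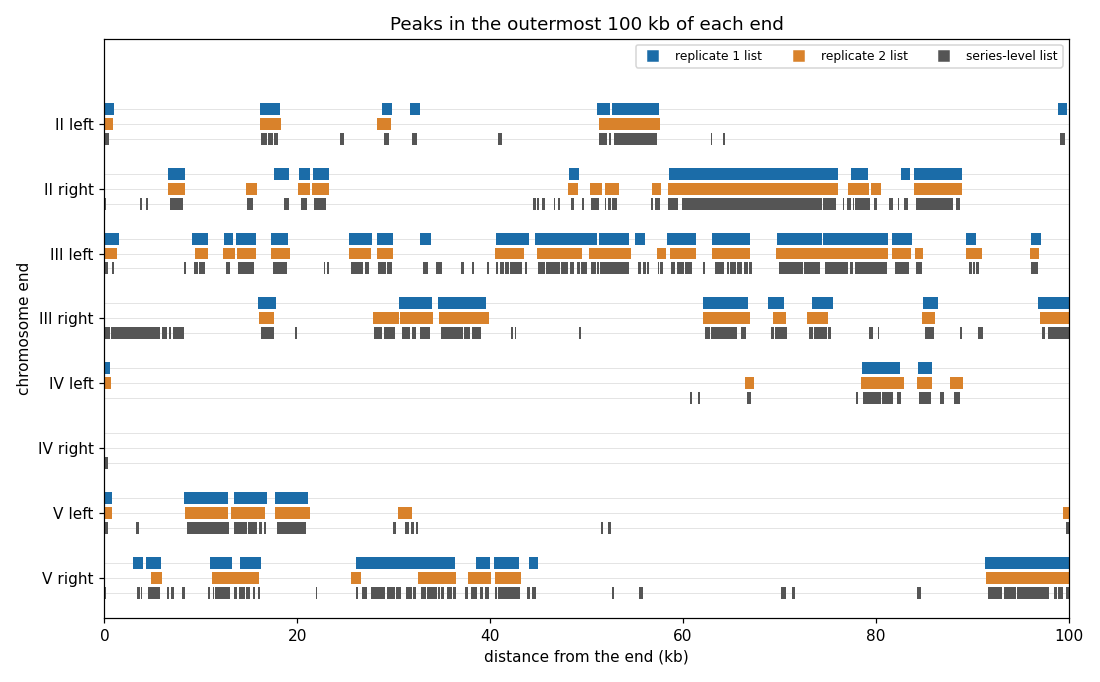
Peaks of the replicate 1, replicate 2 and series-level lists (coloured blocks, to scale) in the outermost 100 kb of each end, against the distance from the end in kb. Peaks that start at base 1 to 3 open the 4 left ends in both replicates, the right end of IV has no replicate peak in the outermost 100 kb, and only the series-level list has peaks in the last 10 kb of the right end of III.

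The strongest and widest sites were taken from the merged spans of overlapping peaks with at least 1 peak of each replicate, of which the 8 ends held 181. Among the widest sites of each end, the largest lay on the right end of chromosome II, 17662 bp from 15203096 to 15220757, with a score of 3100 in both replicates. The left end of III had its widest site, of 16613 bp, from 271063 to 287675 and the right end of III its own, of 15425 bp, from 13520831 to 13536255, both also with scores of 3100. The widest on the right end of V spanned 12496 bp from 20820196 to 20832691, with lower scores of 1015 and 1343. At the other 4 ends the widest site was 7285 bp on the left of II, 6065 bp on the left of V, 5545 bp on the left of IV and 4363 bp on the right of IV. Sites wider than 10 kb numbered 16 of the 181, or 8.84% (95% Wilson interval 5.51 to 13.9, counting error only), close to the 7.64% of all sites of the series. Of these, 10 were on the left end of III, 3 on the right of V, 2 on the right of III and 1 on the right of II.

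The highest-scoring site of each end was ranked by the mean percentile of its score in the 2 lists. On the left end of IV it ran from 184127 to 189671, with scores of 3137 and 3100, within an end that held 9 sites in all. On the left end of V it ran from 8222 to 12830, only 8.22 kb from the end, with scores of 3100 in both replicates. On the right end of V it ran from 20731446 to 20736983, also with 3100 in both. Among the 8, the leading site of the right end of IV scored lowest, with 1599 and 2086 at 17008410 to 17012772, which lay 481 kb from the end. On the left end of III 12 sites shared the top rank, on the right end of II 3 and on the left end of II and the right end of III 2 each, because a score of 3100 is repeated many times in both lists. The first of these tied sites by position ran from 69630 to 81273 on III, from 15038961 to 15046457 and from 51117 to 57559 on the right and left of II, and the tied pair on the right of III included its widest site.

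Peaks at the ends did not rank above the rest of their lists. Of the terminal peaks, 23 of 227 in replicate 1 scored 3100 or more, or 10.1% (95% Wilson interval 6.85 to 14.7), where 11.9% of that whole list did. In replicate 2 it was 30 of 241, or 12.4% (8.86 to 17.2), where 15.3% of the list did. Scores above the median of the list were held by 109 of 227 and 107 of 241 terminal peaks, or 48.0% and 44.4%, against 50% of each list by definition. Both intervals, 41.6 to 54.5 and 38.3 to 50.7, include that share. In the inward windows 47.5% of peaks in replicate 1 and 51.9% in replicate 2 did so. Terminal peaks thus scored lower than inward ones in replicate 2 but not in replicate 1. Terminal peaks had median widths of 2021 and 1936 bp, close to the 2018 and 2024 bp of the whole lists.

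Many peaks at an end did not always come with high scores. At the left end of III 13 of 64 and 13 of 65 peaks scored 3100 or more, and at the right end of V 1 of 54 and 1 of 48 did. The highest series-level score of that end was 31.8, the lowest maximum of any end but the right end of IV (29.3), compared with 130 at the left end of III, 112 at the right end of III and 109 at the right end of II. Median score percentiles were lowest at the left end of II in both replicates, 25.7 and 33.1, although 2 and 3 of its peaks scored 3100 or more. Median percentiles at the left end of V were 58.8 in replicate 1 and 35.9 in replicate 2, so the replicates gave this end a different place.

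**Figure D4:**
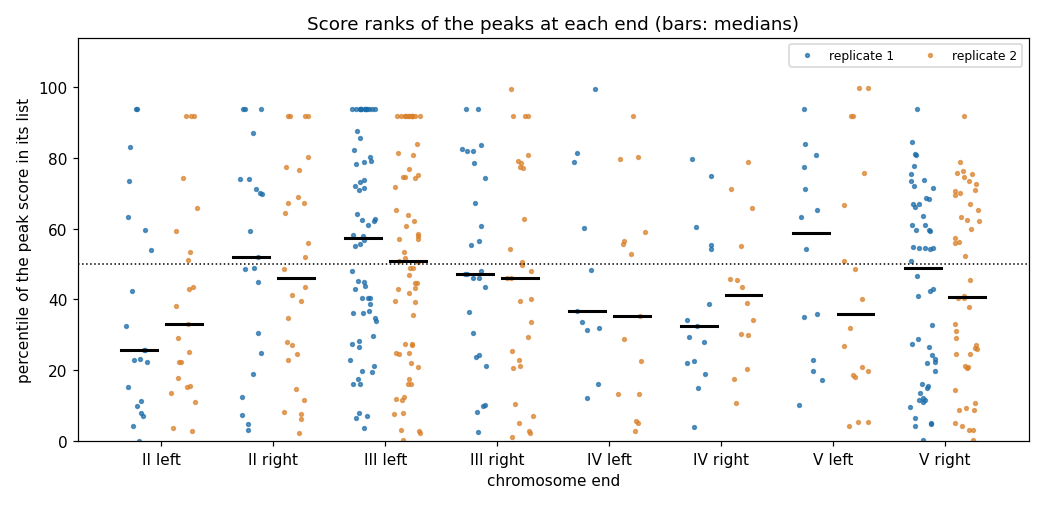
Percentile of each terminal peak's score within its own list (y axis) by chromosome end (x axis) for replicates 1 and 2; black bars are medians and the dotted line is the list median. The rows of points near the top are peaks that share the score of 3100, with 13 in each replicate at the left end of III.

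The replicates were compared peak by peak. Of the terminal peaks of replicate 1, 205 of 227 overlapped a peak of replicate 2 by at least 1 bp, or 90.3% (95% Wilson interval 85.8 to 93.5), where 90.8% of its whole list did. Of those of replicate 2, 194 of 241 overlapped a peak of replicate 1, or 80.5% (75.0 to 85.0), where 83.8% of its list did. Both intervals include the share of the whole list. The unshared peaks of replicate 2 lay mostly at 4 ends, where 15 of 23 peaks on the left of II, 18 of 28 on the right of II, 10 of 15 on the left of IV and 13 of 18 on the left of V were shared. At the left end of III 58 of 65 were, and at the right end of IV all 14 were. The unshared peaks were weaker and narrower than the shared ones at the ends that had any. On the right end of II, for example, the median score in replicate 2 was 156 without and 1106 with an overlap, and the median width rose from 1167 to 2276 bp.

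Counted in bases, the replicates matched closely at the right end of IV, where the part of the peak length found in both was 90.8% in replicate 1 and 94.6% in replicate 2, and at the left end of III, with 90.3% and 93.1%. It was lower at the right end of V, with 75.7% and 76.9%, where both replicates had a similar total but placed part of it differently. In the bin from 400 to 450 kb of that end, for instance, replicate 1 had 45.4% of bases in peaks and replicate 2 had 14.1%. For the left end of II this part was 90.0% in replicate 1 and 68.3% in replicate 2.

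The series-level list gave the same order of the 8 ends by coverage. Of its 943 terminal peaks, 214 overlapped neither replicate, or 22.7% (95% Wilson interval 20.1 to 25.5), where 26.8% of the whole list did. In the next 500 kb inward it was 254 of 970, or 26.2% (23.5 to 29.0). The share varied between ends, from 15.2% at the left end of III (39 of 256) and 15.3% at the left end of II (11 of 72) to 34.9% at the left end of V (22 of 63) and 41.0% at the right end of IV (16 of 39). The terminal interval lies below the 26.8% of the whole list. No test was made of these differences, because peaks are not replicates and the series-level list may rest on the same reads as the replicate lists. The unmatched peaks had median scores of 3.41 to 5.99 by end, and those found in both replicates 7.82 to 13.0. More series-level peaks were matched by replicate 2 alone than by replicate 1 alone at both ends of II (24 against 4 on the left, 22 against 6 on the right), the right end of III (20 against 3), the left end of IV (8 against 3) and both ends of V (13 against 2 on the left, 46 against 39 on the right). The reverse held at the left end of III (20 against 24) and the right end of IV (0 against 1). These counts were not set against those of the whole series-level list, so they are not read as a trait of the ends. The list of replicate 2 is the longer, with 4000 peaks against 3810.

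**Figure D5:**
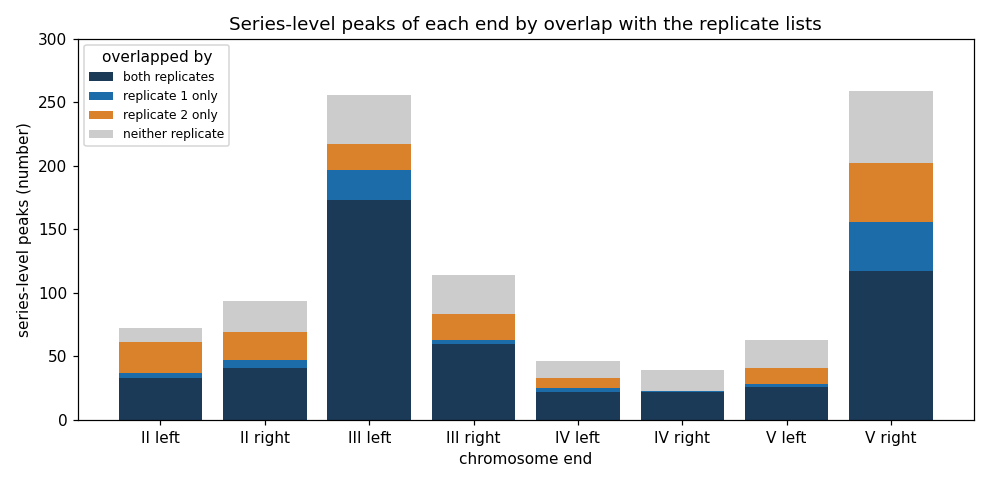
Number of series-level peaks (y axis) at each chromosome end (x axis), coloured by overlap with both replicates, a single replicate or neither. The left end of III and the right end of V have 256 and 259 peaks, of which 173 and 117 overlap both replicates.

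The 500-kb limit cut few peaks. A single peak of each list crossed it, on the right of chromosome V. In the replicate lists the last peak inside the limit had its midpoint between 3.31 and 173 kb from it, and the first peak outside between 0.484 and 151 kb.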

How the data were processed

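Per the file headers, coordinates are those of WormBase WS220. The source field names MACS as the peak caller of the replicate lists and MACS v2 as that of the series-level list. The deposited value of each peak is a score without a stated definition, used here only to rank and describe peaks within a list. The aligner, thresholds, use of input and pooling are not given in the sources used here. Coverage of a window was the union of peaks clipped to it. Overlap meant at least 1 bp. Windows, ends and lists were chosen with earlier results of these data known. Sites named were, for each end, the site with the highest mean score percentile, the widest and the nearest to the end. No chance test was made, and Wilson 95% intervals cover counting error only. Peaks are not replicates, so an interval that includes or leaves out the share of a whole list gives no verdict. Functions were tested on simulated data. Gene names came from assembly WBcel235, another build, and gave only the symbol of T09A5.8, so genes, repeats and sequences of the ends were not analysed here. Depth is unknown. Alternatives were other windows, lists, overlaps, score filters and left-out replicates and ends. Analyses used Python 3.11.15, numpy 2.4.6, pandas 2.3.3, scipy 1.17.1 and matplotlib 3.10.9.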

Additional observations from a re-analysis of the deposited data

How the results depend on the processing

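The order of the 8 ends by coverage was the same in the series-level list and without replicate 1. Without replicate 2 only the ends of IV changed places, and with windows of 250 kb only the right ends of II and III, which were nearly equal (both 21.2%). The covered shares themselves were less stable. With windows of 250 kb they moved beyond the SD of the replicates at 7 of 8 ends, as from 4.88% to 1.16% on the right of IV. In the series-level list they did so at 3 ends. The number of terminal peaks was 943 in the series-level list and 108 when peaks at or below the median score were left out, against 234 on average, as follows from the lengths of those lists. The ratio of terminal to inward coverage, 1.01, was 1.03 in the series-level list, 1.05 with peaks above the median score, 1.15 with windows of 250 kb, and 1.00 and 1.01 without replicate 1 and 2. It turned to 0.562 with windows of 1 Mb, and to 0.973 when peaks were counted in place of bases. The inward part of the windows of 1 Mb takes in the densest windows of II, III and IV and, in replicate 2, that of V. Their part in the ratio was not tested. Of the alternatives added after the data were seen, leaving out the left end of III turned it to 0.771, and leaving out the left end of IV gave 1.16. Ends covered more than their inward window, 3 of 8, became 5 with windows of 250 kb and 0 with windows of 1 Mb, and the left end of III was not among them in either setting. The share of terminal series-level peaks in neither replicate, 22.7%, was 31.4% and 38.9% without replicate 1 and 2, as follows from setting it against fewer peaks. It was 34.0% when all 3 lists were cut to peaks above their median score. That cut changed the series-level peaks counted as well as the replicate peaks they were set against. The share of terminal peaks found in the other replicate stayed between 83.8% and 85.9% under the alternatives run. No paired analysis was possible because no values of the input group entered, and its replicate numbers are the only ones that could be paired with those of the ChIP group. Depth is unknown, so weak peaks in a single replicate cannot be read against read number.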

Other observations

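In C. elegans meiosis each chromosome pairs through a pairing centre near a single end, which on chromosomes II, III and IV is the left and on V the right. The comparison of these ends with the opposite ones was chosen after the values were seen, and was not tested. Coverage by T09A5.8 peaks was higher at the pairing-centre end on III, with 55.7% and 54.0% in replicates 1 and 2 against 17.5% and 20.0%, and on V, with 30.7% and 30.2% against 7.15% and 8.71%. On II it was lower, with 8.54% and 11.3% against 14.0% and 16.3%. On IV the ranges of both ends overlapped, with 4.87% and 6.27% against 4.98% and 4.78%. With windows of 500 kb the pattern thus held on 2 of 4 chromosomes. The result on IV depended on the window. Its outer 250 kb were covered by 7.45% and 9.53% on the left, against 1.23% and 1.09% on the right. For its outer 1 Mb the values were 13.3% and 15.7% against 6.80% and 7.57%. At both of these sizes the pairing-centre end stayed lower on II and higher on III and V.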
